A study of Mus musculus with 4 samples.

Results

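Chemokine receptors are the receptors that steer T cells between blood, lymphoid organs and tissues. Here 9 of them were followed in splenic regulatory T (Treg) cells, namely Ccr7, Cxcr4, Cxcr3, Cxcr6, Ccr4, Ccr8, Ccr6, Ccr9 and Ccr2, taken by gene symbol from the 24087 rows of the deposited expression table. The cells came from C57BL/6 mice that carried Foxp3Cre-YFP, a Cre recombinase fused to a yellow fluorescent protein and made in cells that express Foxp3. KO mice were Foxp3Cre-YFPSetd2f/f and CTRL mice were littermates with 1 floxed allele, Foxp3Cre-YFPSetd2f/+, so that both groups carried Cre and the CTRL cells could lose 1 copy of Setd2. Spleens were taken at steady state without treatment, cells were sorted as CD3+CD4+YFP+, and RNA-seq was done on 2 libraries per genotype, each pooled from 2 mice by the deposited design text. The labels gave no age. The comparison asks what loss of Setd2, the methyltransferase that places H3K36me3, goes with in the homing receptors of Treg cells.

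Chemokine receptors are seven-pass membrane proteins that signal through inhibitory G proteins, and a cell moves up a gradient of the ligand its receptor binds. Resting Treg cells are known to carry Ccr7, which leads them into the T-cell zones of spleen and lymph nodes. Activated Treg cells are known to gain receptors for inflamed or barrier tissue, such as Cxcr3, Cxcr6, Ccr4 and Ccr8. In a bulk sample, fewer cells that carry a receptor and less RNA per cell cannot be told apart.

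Every value below is in FPKM, the fragments of a gene per kilobase of its length and relative to the depth of its library, which may be compared between genes as a level per length. At least 30575941 to 33184295 reads stood behind the genes of a library. Among the defining Treg markers Foxp3 reached 121 and 139.8 FPKM in the CTRL libraries, beside 112 and 119 in KO. Of the 2 CD8 T-cell markers, Cd8a was below 1 in all 4 libraries and Cd8b1 measured 8.33 and 11.2 in CTRL, beside 10.3 and 11.1 in KO. RNA known from other cells was present. The summed FPKM of 8 myeloid markers came to 209.7 in CTRL 1 and 128 in CTRL 2, beside 273 in KO 1 and 103 in KO 2, and all 8 were higher in the library numbered 1 of each genotype. The 7 B-cell markers summed to 926 and 664 in CTRL and to 1287 and 1193 in KO, nearly all of it Ighm. All 6 B-cell markers tested had a fold change above 0, but none passed the test. Both KO values were above both CTRL values for 3 of these 6, against 29.0% of all genes tested. Ms4a1, a membrane protein of B cells, measured 1.56 and 0.842 in CTRL, beside 2.71 and 0.535 in KO. Setd2 itself, counted over the whole gene and not over the floxed part alone, measured 23.4 and 25.3 FPKM in CTRL, beside 21.3 and 19.5 in KO (log2 fold change -0.24, adjusted p = 0.097), so the gene-level value does not check the deletion.

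Of the 9 receptors, Ccr4, Ccr8, Ccr9, Cxcr6 and Ccr2 lie on chromosome 9, as does Setd2, and Cxcr3 lies on chromosome X. The sequences below show the 250 bases before the start of Cxcr3, the 1 receptor that passed the test in the comparison of KO with CTRL, and of Cxcr6, Ccr4 and Ccr8, the other receptors that were higher in KO at an unadjusted p under 0.05. They were taken from RefSeq on GRCm38.p6, where 8 of the 9 receptors were matched (no entry for Ccr7) in 9 windows, since Ccr6 has 2 starts. The starts are those of RefSeq. The gene positions given further below are from GENCODE vM21, and by these some windows lie partly or wholly inside the gene. Capitals mark matches, on either strand, to any of 5 short motifs. These are the T-box core AGGTGT, the RUNX core TGTGGT (read on the other strand as ACCACA), the GATA core AGATAA (read on the other strand as TTATCT), the AP-1 core TGAGTCA and, as the last motif, the TATA box TATAAA. The letters run 5′ to 3′ along the strand of the gene.

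Cxcr3 (chrX:101734148-101734397, minus strand): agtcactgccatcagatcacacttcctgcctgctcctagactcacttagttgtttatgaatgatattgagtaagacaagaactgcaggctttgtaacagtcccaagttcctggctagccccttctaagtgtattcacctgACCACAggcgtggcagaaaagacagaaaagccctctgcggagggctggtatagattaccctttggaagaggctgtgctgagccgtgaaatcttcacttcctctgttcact
Cxcr6 (chr9:123806227-123806476, plus strand): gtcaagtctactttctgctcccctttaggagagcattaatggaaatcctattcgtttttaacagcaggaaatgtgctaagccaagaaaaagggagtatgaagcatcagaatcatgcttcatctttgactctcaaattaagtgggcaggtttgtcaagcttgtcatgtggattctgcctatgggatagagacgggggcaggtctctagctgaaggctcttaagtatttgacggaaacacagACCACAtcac
Ccr4 (chr9:114496545-114496794, minus strand): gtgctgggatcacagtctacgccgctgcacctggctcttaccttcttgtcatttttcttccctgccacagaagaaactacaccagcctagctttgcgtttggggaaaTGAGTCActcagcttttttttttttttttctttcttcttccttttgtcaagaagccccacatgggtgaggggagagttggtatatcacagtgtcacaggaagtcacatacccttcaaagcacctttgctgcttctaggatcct
Ccr8 (chr9:120091883-120092132, plus strand): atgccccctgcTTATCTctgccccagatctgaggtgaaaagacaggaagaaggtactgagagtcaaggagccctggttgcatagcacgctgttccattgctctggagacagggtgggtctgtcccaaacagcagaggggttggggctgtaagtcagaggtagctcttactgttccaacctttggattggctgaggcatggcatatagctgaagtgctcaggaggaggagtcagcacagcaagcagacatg

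The windows of Cxcr3 and Cxcr6 each held ACCACA, 110 to 105 bases before the RefSeq start of Cxcr3 and 10 to 5 bases before that of Cxcr6. By GENCODE vM21 the Cxcr3 match lies inside the gene. So do the whole windows of Ccr4, Ccr9 and the second Ccr6 start, and most of the Ccr2 window. That RUNX core was found in 14.0% of all 32851 windows of this length. The Ccr4 window held TGAGTCA, found in 4.46% of windows, and the windows of Ccr8, Ccr2 and the second Ccr6 start held the GATA core, found in 9.99%. No window of a matched receptor held AGGTGT, which was found in 11.8% of all windows. The Cxcr4 window held TTTATAAA, in which TATAAA and its reverse overlap, 32 to 25 bases before the start (TATAAA or its reverse was in 12.4% of windows). A match to a few letters is a description of the sequence and not a binding site. The 9 windows were poor in CpG with the exception of Cxcr4, which had 19 CpG in 250 bases, and the second Ccr6 start, which had 7. The other 7 windows held 1 to 3 CpG, against a median of 6 over all windows.

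In CTRL Treg cells Ccr7 was the highest of the 9 receptors and Ccr9 the lowest. Mean FPKM in CTRL fell from 127 ± 5.64 (SD, n = 2) for Ccr7 to 65.7 ± 4.80 for Cxcr3, 63.5 ± 8.64 for Cxcr4, 44.3 ± 2.01 for Ccr8 and 23.2 ± 3.52 for Ccr2. Below these stood Ccr4 at 17.7 ± 0.735, Cxcr6 at 16.3 ± 4.56, Ccr6 at 10.1 ± 0.0770 and Ccr9 at 4.04 ± 0.356. Cxcr3 and Cxcr4 overlapped between the libraries, as did Ccr4 and Cxcr6, so neither pair has a settled order, while the remaining neighbours were separated in both libraries. In KO the order was Ccr7 at 113 ± 40.2, Cxcr3 at 92.4 ± 4.58, Ccr8 at 69.6 ± 15.1, Cxcr4 at 50.7 ± 14.3 and Cxcr6 at 40.4 ± 12.3, followed by Ccr2 at 32.7 ± 14.2, Ccr4 at 22.0 ± 1.31, Ccr6 at 7.38 ± 0.961 and Ccr9 at 6.94 ± 3.02. There the wide spread between the 2 KO libraries left Ccr7 and Cxcr3, Ccr8 and Cxcr4, Cxcr4 and Cxcr6, Cxcr6 and Ccr2, Ccr2 and Ccr4, and Ccr6 and Ccr9 overlapping. Within each KO library, however, Ccr8 was above Cxcr4, Cxcr4 above Cxcr6, and Ccr2 above Ccr4. The order of Ccr7 and Cxcr3, of Cxcr6 and Ccr2, and of Ccr6 and Ccr9 changed between the KO libraries. An order of levels also rests on the gene lengths the authors used. The fewest whole reads that give the values imply 4398 bases for Ccr9, 3594 for Ccr2 and 1395 for Ccr4. A multiple of those reads would imply greater lengths, so these are lower limits. The exons of GENCODE vM21 cover 10260, 6760 and 3093 bases.

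**Figure D1:**
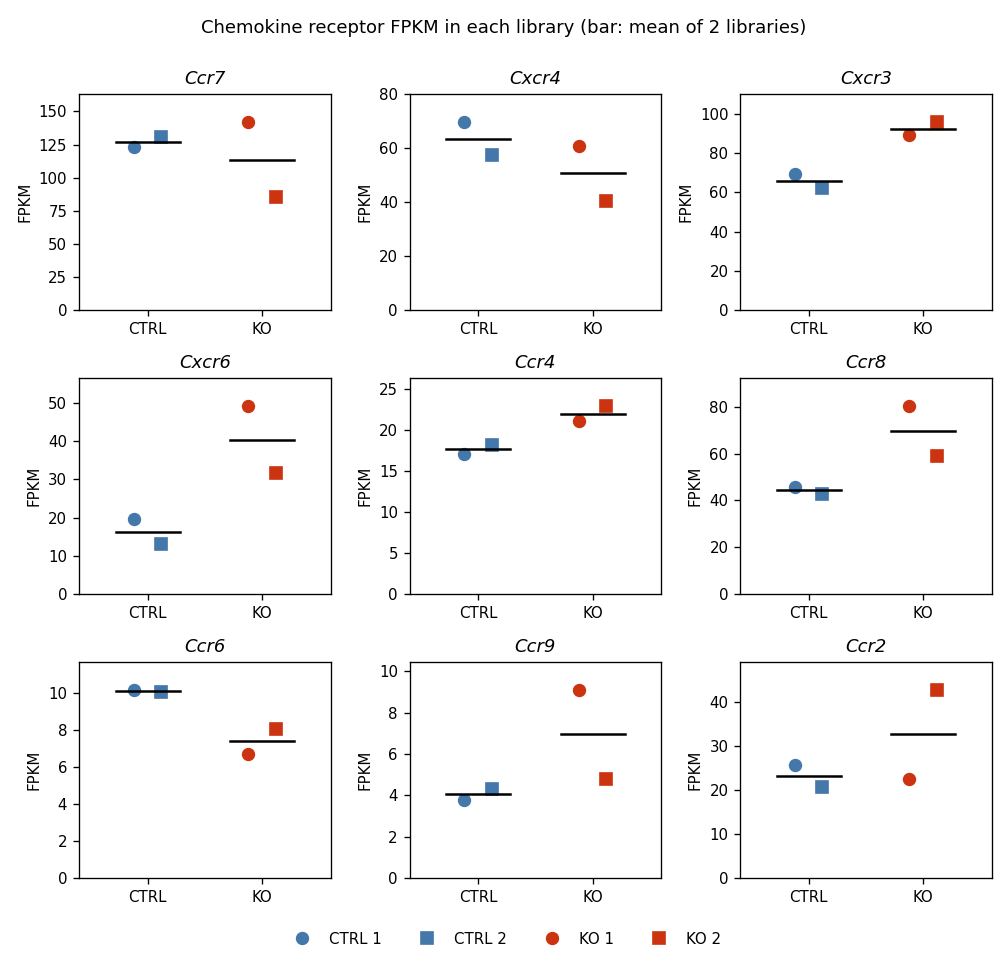
FPKM of the 9 chemokine receptor genes (y axes, each from 0) in the 2 CTRL and 2 KO libraries (x axes, points), with a black bar at the mean of each genotype. Cxcr3 sits at 89.1 and 95.6 in KO above 69.1 and 62.3 in CTRL, whereas the KO points of Ccr7 lie on both sides of the CTRL points.

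Cxcr3 rose in KO Treg cells, and it was the 1 receptor of the 9 that passed the test, with none lower. The test was limma on log2(FPKM + 1) over 11399 genes, those that reached 1 FPKM in 2 libraries or more, with Benjamini-Hochberg adjustment and a threshold of 0.05, and all 9 receptors entered it. Over all genes tested 5.10% were called higher in KO and 4.65% lower (9.75% in all), so 1 of 9 is near that background. At an unadjusted p under 0.05, 4 receptors were higher (Cxcr3, Cxcr6, Ccr4 and Ccr8), against 16.3% of all genes, and Ccr6 was lower, against 18.4%. Both KO libraries lay above both CTRL libraries for 5 receptors, namely Cxcr3, Cxcr6, Ccr4, Ccr8 and Ccr9, against 29.0% of all genes tested. Both lay below for Ccr6 alone, against 35.5% of all genes, so that 6 of 9 were separate in either direction where 64.5% of all genes were. The KO and CTRL values of Ccr7, Cxcr4 and Ccr2 overlapped. The fold change was above 0 for 6 of the 9, and its median over the 9 was 0.42 on the log2 scale, beside -0.022 over all genes tested. The call depended on the fit. Among genes whose mean FPKM passed 5 in 1 genotype or both, 4 of the 9 were called higher (7.56% of those genes) and 0 lower (7.19%), and limma-voom on reads recovered from the FPKM called 3 higher (7.70%) and 1 lower (8.84%).

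Ccr7 and Cxcr4 serve lymphoid homing (positions here and below are from GENCODE vM21 on GRCm38). Ccr7 (chr11:99144196-99155077), the receptor for Ccl19 and Ccl21 in the T-cell zone, measured 123 and 131 FPKM in CTRL 1 and CTRL 2, against 142 and 85.1 in KO 1 and KO 2. The KO libraries held both the highest and the lowest value, so the groups overlapped. Its log2 fold change was -0.21 ± 0.24 (SE), with a 95% interval from -0.81 to 0.40 (adjusted p = 0.582), and without KO 2 it turned to 0.16. Cxcr4 (chr1:128588199-128592293), the receptor for Cxcl12 that holds cells in bone marrow and splenic niches, measured 69.6 and 57.4 FPKM in CTRL 1 and CTRL 2, against 60.8 and 40.6 in KO 1 and KO 2. KO 1 stood between the CTRL libraries and KO 2 below both, and in each genotype the library numbered 1, which held more myeloid marker RNA, was the higher. Its log2 fold change was -0.34 ± 0.21, with an interval from -0.87 to 0.19 (adjusted p = 0.297). The part of the myeloid RNA in the Cxcr4 values was not tested.

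Cxcr3 and Cxcr6 mark Treg cells of type 1 responses and of tissue. Cxcr3 (chrX:101731535-101734269), which binds the interferon-induced ligands Cxcl9, Cxcl10 and Cxcl11, measured 69.1 and 62.3 FPKM in CTRL 1 and CTRL 2, against 89.1 and 95.6 in KO 1 and KO 2. Both KO libraries were higher than both CTRL libraries, and within each genotype the values lay close together. On the log2 scale Cxcr3 differed by 0.49 ± 0.075, with an interval from 0.29 to 0.68 (adjusted p = 0.0371), a ratio of mean FPKM of 1.41. It passed in 9 of 11 other settings with all 4 libraries, with adjusted p from 0.0175 to 0.0861. With any 1 library left out it did not pass (log2 fold change 0.41 to 0.56), and in those fits at most 1 gene of all tested passed in either direction. Xist, which is read from the inactive X chromosome of female cells, measured 29.1 and 37.3 FPKM in CTRL, beside 23.4 and 23.3 in KO (adjusted p = 0.0664), and all 4 Y-linked genes looked at were above 0 in every library. As Cxcr3 is X-linked these values stand beside it, and the part of the sex of the pooled mice was not tested.

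Cxcr6 (chr9:123806475-123811760), the receptor for Cxcl16 and a marker of tissue-resident T cells, had the largest fold change of the 9 but stood at the edge of the threshold. Its FPKM was 19.5 and 13.1 in CTRL 1 and CTRL 2, against 49.1 and 31.7 in KO 1 and KO 2. Both KO libraries lay above both CTRL libraries, and the libraries of each genotype also differed widely between themselves. This is a log2 fold change of 1.25 ± 0.26, with an interval from 0.57 to 1.93 (adjusted p = 0.0509), a ratio of mean FPKM of 2.48. The value was higher in the library numbered 1 of each genotype, as the myeloid markers were. By library number, which pairs them by name only, KO 1 was 2.52 times CTRL 1 and KO 2 was 2.42 times CTRL 2. The part of myeloid RNA in the Cxcr6 values was not tested. Cxcr6 passed in 5 of 11 other settings (adjusted p from 0.00469 to 0.12), and its fold change was 0.94 to 1.56 with 1 library left out. The lowest of these adjusted p came from a fit that paired libraries by number, and the next lowest was 0.0266, by limma-voom. The gene overlaps Fyco1 on the other strand with no shared exonic base, and the strand setting of the counting is not given in the sources used here.

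Ccr4 and Ccr8 are receptors of activated Treg cells in skin and other barrier tissue. Ccr4 (chr9:114490316-114504916), which binds Ccl17 and Ccl22, measured 17.2 and 18.2 FPKM in CTRL 1 and CTRL 2, against 21.1 and 22.9 in KO 1 and KO 2. Both KO values were above both CTRL values by a small step, and replicates lay close. Ccr4 thus had a log2 fold change of 0.30 ± 0.073, with an interval from 0.11 to 0.49 (adjusted p = 0.062). Ccr8 (chr9:120092114-120094906), which binds Ccl1 and is carried by highly activated Treg cells, measured 45.8 and 42.9 FPKM in CTRL 1 and CTRL 2, against 80.3 and 58.9 in KO 1 and KO 2. The KO libraries again lay above, KO 1 well above KO 2. For Ccr8 this gave a log2 fold change of 0.62 ± 0.15, with an interval from 0.24 to 1.01 (adjusted p = 0.0615). Neither passed over all genes tested, and of 11 other settings Ccr4 passed in 2 and Ccr8 in 3.

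Ccr6 and Ccr9 guide cells to mucosa. Ccr6 (chr17:8236043-8257141), the receptor for Ccl20 and typical of cells of type 17 responses and of B cells, measured 10.1 and 10.0 FPKM in CTRL 1 and CTRL 2, against 6.70 and 8.06 in KO 1 and KO 2. It was the 1 receptor of the 9 with both KO values below both CTRL values, and the CTRL libraries were nearly equal. The log2 fold change was -0.41 ± 0.10, with an interval from -0.67 to -0.15 (adjusted p = 0.0634), and Ccr6 passed in 2 of 11 other settings. The part of B-cell RNA in its values was not tested. Ccr9 (chr9:123678439-123784330), the receptor for Ccl25 that leads cells to the small intestine, measured 3.79 and 4.29 FPKM in CTRL 1 and CTRL 2, against 9.08 and 4.80 in KO 1 and KO 2. Both KO values were above CTRL, but KO 2 was only just above CTRL 2. The log2 fold change was 0.60 ± 0.27, with an interval from -0.081 to 1.29 (adjusted p = 0.182), and it did not pass in any of the 11 other settings. Plasmacytoid dendritic cells also carry Ccr9, and their marker Siglech was below 1 FPKM in all 4 libraries. Ccr9 overlaps Slc6a20a (22 shared exonic bases) and Lztfl1 (no shared exonic base), both on the other strand. In GENCODE vM21 it also shares 1932 of its 10260 exonic bases with AC165425.1 on the other strand and 269 with Gm17200 on its own strand, neither of which has a row in the table, so its value is uncertain to that extent.

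Ccr2 (chr9:124101950-124113557), the receptor for Ccl2 that is best known on monocytes and is also found on activated T cells, measured 25.7 and 20.7 FPKM in CTRL 1 and CTRL 2, against 22.6 and 42.8 in KO 1 and KO 2. KO 2 stood alone above the other 3 libraries, and KO 1 lay between the CTRL values. The log2 fold change was 0.42 ± 0.30, with an interval from -0.35 to 1.19 (adjusted p = 0.376), and without KO 2 it was -0.029. The summed myeloid markers were 273 in KO 1 and 103 in KO 2, and the part of myeloid RNA in the Ccr2 values was not tested.

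**Figure D2:**
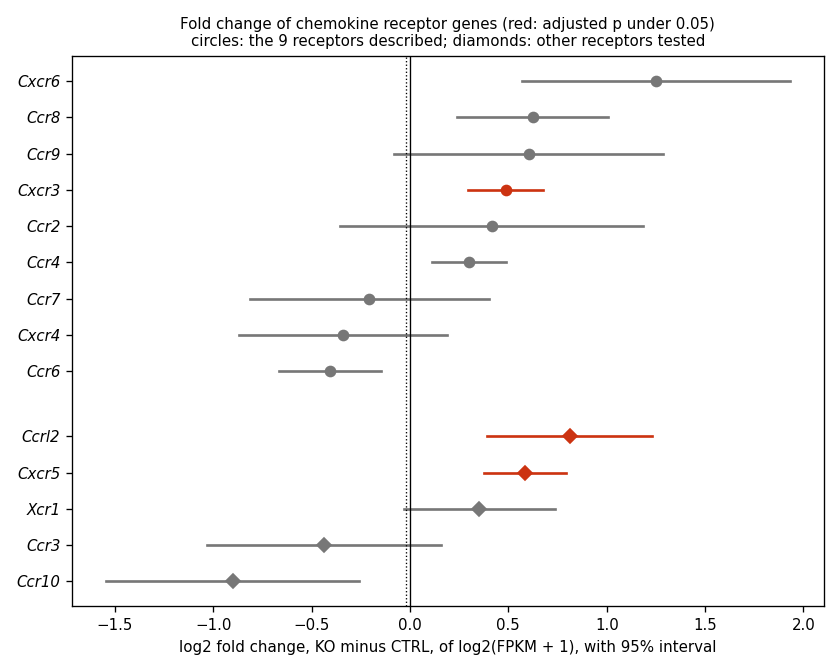
Log2 fold change of KO minus CTRL on log2(FPKM + 1) (x axis) with its 95% interval (lines) for the 9 receptors (circles) and for 5 other chemokine receptors that were tested (diamonds), with a solid line at 0 and a dotted line at the median of all genes. The red symbols, Cxcr3, Ccrl2 and Cxcr5, passed the threshold, and Cxcr6 has the highest value at 1.25.

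The make-up of the receptor RNA was compared within libraries, where depth does not enter. The 9 receptors summed to 384 and 360.0 FPKM in CTRL and to 481 and 390.4 in KO. Ccr7 made up 32.0% and 36.4% of that sum in CTRL and 29.5% and 21.8% in KO. Cxcr6 made up 5.09% and 3.64% in CTRL and 10.2% and 8.11% in KO, and Ccr8 made up 11.9% in each CTRL library and 16.7% and 15.1% in KO. Cxcr4 went from 18.1% and 16.0% in CTRL to 12.7% and 10.4% in KO. For each of these 4 receptors the shares of the genotypes did not overlap, as descriptions with no test. Nor did those of Cxcr3 (18.0% and 17.3% in CTRL, 18.5% and 24.5% in KO), Ccr6 and Ccr9, while those of Ccr4 and Ccr2 overlapped. A share also moves with the other receptors in the sum. The Ccr7 share in KO 1 was below both CTRL shares, though KO 1 held the highest Ccr7 FPKM of all libraries. The level of Cxcr3 over that of Ccr7 was 0.562 and 0.476 in CTRL, and 0.628 and 1.12 in KO, and in KO 2 Cxcr3 was the highest receptor of the 9.

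**Figure D3:**
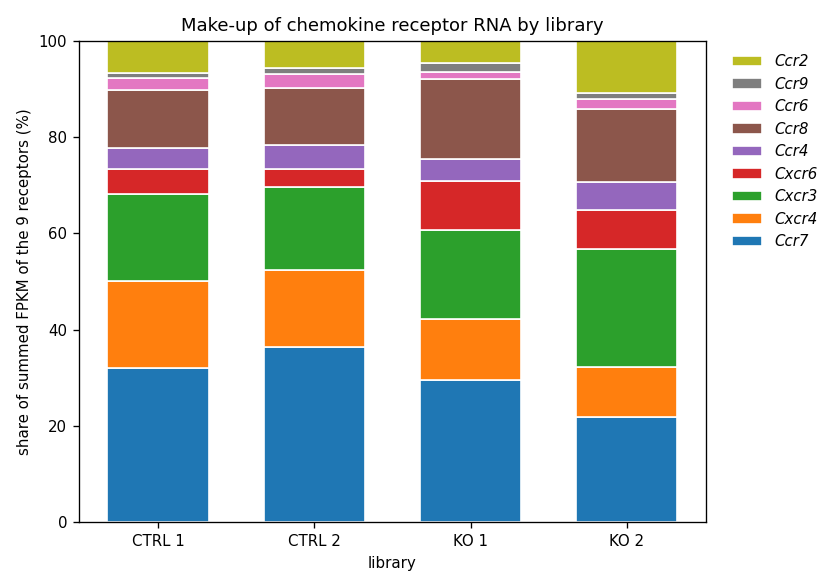
Share of the summed FPKM of the 9 receptors that each receptor made up (y axis, percent) in the 4 libraries (x axis, stacked bars). The Ccr7 share at the foot of the bars is 32.0% and 36.4% in CTRL and 29.5% and 21.8% in KO, and the Cxcr6 and Ccr8 shares are larger in both KO libraries.

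The KO libraries differed from each other more in these receptors than in most genes. The gap between KO 1 and KO 2 on log2(FPKM + 1) was 0.73 for Ccr7, 0.57 for Cxcr4, 0.62 for Cxcr6, 0.44 for Ccr8, 0.80 for Ccr9 and 0.89 for Ccr2, where the median gap over all genes tested was 0.091. These 6 gaps ranked from the 94.1 percentile (Ccr8) to the 98.6 percentile (Ccr2) of all genes tested. KO 1 was the higher for 5 of the 6, and KO 2 for Ccr2. The gap between the KO libraries was small for Cxcr3 and Ccr4, at 0.10 and 0.12. Between CTRL 1 and CTRL 2 the gap was 0.090 for Ccr7 and 0.091 for Ccr8, close to the all-gene median of 0.095. It was wide for Cxcr6 at 0.54, and also for Ccr2 at 0.30 (90.2 percentile) and Cxcr4 at 0.27 (88.7 percentile). The CTRL gap was above the all-gene median for 5 of the 9 receptors, and the KO gap for all 9. Each library is a pool of 2 mice, and whether mice, sorts or other cells set these gaps was not tested.

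**Figure D4:**
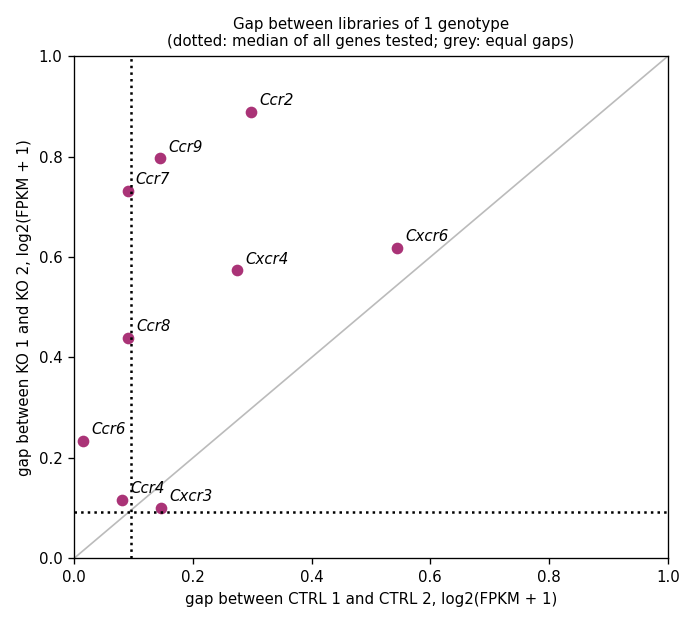
Absolute gap between the 2 CTRL libraries (x axis) and between the 2 KO libraries (y axis) on log2(FPKM + 1) for the 9 receptors (points), with the medians of all genes tested as dotted lines and equal gaps as a grey line. Ccr2, Ccr9 and Ccr7 stand highest, with KO gaps of 0.89, 0.80 and 0.73.

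The other chemokine receptors give the rest of the family. Of 11 listed, 6 passed the filter on low values, and 2 rose, where 5.10% of all genes tested were called higher. Cxcr5, the receptor for Cxcl13 that leads follicular Treg cells and B cells into follicles, measured 21.3 and 18.6 FPKM in CTRL, against 30.3 and 30.4 in KO (log2 fold change 0.59 ± 0.081, adjusted p = 0.0351). Ccrl2, a receptor that binds chemerin without driving movement, measured 12.5 and 14.9 in CTRL, against 28.7 and 21.2 in KO (0.81 ± 0.16, adjusted p = 0.047). Both genes had every KO value above every CTRL value. Ccrl2 did not pass without the variance trend (adjusted p = 0.0625) or with the exon length trend removed (0.0565). The B-cell markers given above stand beside Cxcr5, and their part in its values was not tested. Mean FPKM was 4.79 ± 0.0713 in CTRL and 2.2 ± 1.14 in KO for Ccr10 (adjusted p = 0.0782), 5.55 ± 2.13 and 3.70 ± 0.304 for Ccr3 (0.244) and 0.742 ± 0.170 and 1.22 ± 0.179 for Xcr1 (0.17). None of these 3 passed. Ccr1, Ccr1l1, Cxcr1, Cxcr2 and Cx3cr1 and the 4 atypical chemokine receptors, which take up chemokines without signalling movement, did not pass the filter.

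Among 36 chemokines, 13 passed the filter, 2 rose and none fell, where 5.10% of all genes tested were called higher and 4.65% lower. Ccl5, a chemokine that activated T cells make, measured 43.7 and 46.9 FPKM in CTRL, against 70.0 and 64.7 in KO (log2 fold change 0.56 ± 0.069, adjusted p = 0.0346). Cxcl10, a ligand of Cxcr3, measured 39.4 and 35.8 in CTRL, against 104 and 68.1 in KO (1.14 ± 0.20, adjusted p = 0.0405). Both were higher in both KO libraries. The median log2 fold change of the 13 chemokines was 0.14. Cxcl10 did not pass without the variance trend (adjusted p = 0.054) or with robust eBayes (0.0562). Myeloid cells also make Cxcl10, which was highest in KO 1, the library with the highest summed myeloid markers (273), and none of the 8 myeloid markers passed. The part of myeloid RNA in the Cxcl10 values was not tested.

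Of 38 genes that carry the signal of chemokine receptors, all passed the filter, 1 rose and 2 fell. Over all genes tested 5.10% were called higher, 4.65% lower and 9.75% in either direction. Gnai2, the inhibitory G protein subunit that couples most chemokine receptors, measured 431 and 455 FPKM in CTRL, against 590.3 and 609 in KO (log2 fold change 0.44 ± 0.059, adjusted p = 0.0351). Plcb2, a phospholipase C that G-protein subunits activate, measured 32.7 and 33.9 in CTRL, against 24.7 and 24.4 in KO (-0.42 ± 0.057, adjusted p = 0.0351). Pik3r5, the adaptor of the phosphoinositide 3-kinase downstream of these receptors, measured 31.2 and 32.7 in CTRL, against 22.0 and 24.8 in KO (-0.44 ± 0.078, adjusted p = 0.0406). In each of the 3 genes the genotypes were separate and the replicates close. Pik3r5 did not pass without the variance trend (adjusted p = 0.0566). The median over the 38 was 0.046, and 24 had a fold change above 0.

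Of the 9 receptors, the 5 on chromosome 9 all had a fold change above 0. All 5 lie after Setd2, from Ccr4 at 3.96 Mb to Ccr2 at 13.6 Mb between the lower coordinates of the genes. The genes around Setd2 as a whole did not share this direction. Within 15 Mb of Setd2, 5.09% of 216 genes tested were called higher and 4.17% lower, near the background, with a median log2 fold change of -0.045. Among the 55 genes between Ccr4 and Ccr2 that are not of the 9, 38.2% had a fold change above 0, beside 46.2% of all genes tested. Ccr9, Cxcr6, Xcr1, Ccr3 and Ccr2 lie in 1 cluster of receptor genes. Of these, Ccr3 had a log2 fold change below 0 (-0.44), with both KO values below both CTRL values, and Xcr1 had 0.35. Ccrl2, at 0.52 Mb from Setd2, had 0.81. Within 0.4 Mb of Cxcr6, 7 genes that are not of the 9 were tested, and Lztfl1 alone passed, a ciliary transport gene named here after its values were seen. Lztfl1 measured 9.95 and 8.04 FPKM in CTRL, against 19.3 and 15.5 in KO (log2 fold change 0.88 ± 0.14, adjusted p = 0.0379). Fyco1, which lies between Lztfl1 and Cxcr6, measured 14.9 and 13.2 in CTRL, against 13.4 and 12.5 in KO.

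**Figure D5:**
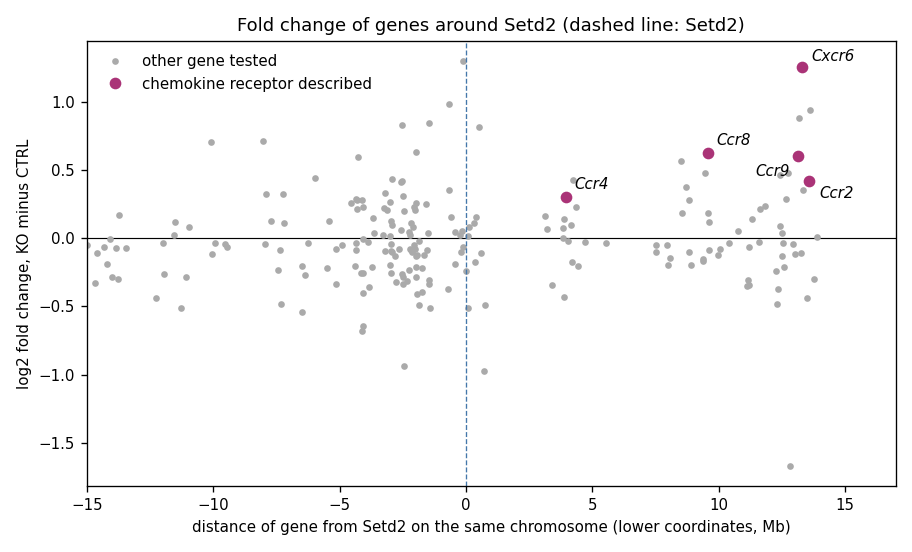
Log2 fold change of KO minus CTRL (y axis) for genes tested within 15 Mb of Setd2, against the distance of their lower coordinate from that of Setd2 (x axis, Mb). Purple points are the 5 of the 9 receptors on that chromosome. Grey points are other genes, among them Ccr3 at -0.44 and Ccrl2 at 0.81. All 5 purple points lie above 0 while the grey points spread around 0, with a median of -0.045 for all genes in the window.

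The genes whose 4 values ran most like those of Cxcr6 and Ccr6, the receptors with the highest and the lowest fold change, were found by the Euclidean distance of mean-centred log2(FPKM + 1) over the 4 libraries. For Cxcr6 they were Cxcl2 (distance 0.143), a neutrophil-attracting chemokine, Arnt2 (0.210), a transcription factor, and Lilr4b (0.216), a receptor of leukocytes. Cxcl2 measured 8.89 and 6.05 FPKM in CTRL, against 22.0 and 13.4 in KO, with the library numbered 1 higher in both genotypes as for Cxcr6. For Ccr6 they were Erich1 (0.0204), Mtrr (0.0300), an enzyme that reactivates methionine synthase, and Rnf167 (0.0325), a ubiquitin ligase. Each of these 3 was lower in KO 1 than in KO 2 and nearly equal in the CTRL libraries. With 4 libraries such likeness is a description of the values.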

How the data were processed

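RNA-seq of 4 libraries (CTRL 1, CTRL 2, KO 1 and KO 2) was used. The authors aligned reads to mm10 with HISAT2 (2.2.1), counted them with featureCounts (2.0.1) and deposited FPKM per gene. Annotation, strand setting and treatment of multi-mapped reads are not given in the sources used here. Control columns named WT were read as the CTRL libraries of the same number. FPKM values were whole multiples of what 1 read is worth for 100% of 19888 genes above 0 (tolerance 0.001), which gave relative depth and the least reads per gene.

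KO was compared with CTRL by limma (3.58.1, R 4.3.3; eBayes with trend) on log2(FPKM + 1), a scale that understates changes of low genes, for genes that reached 1 FPKM in 2 libraries or more. P was two-sided, with Benjamini-Hochberg adjustment over all 11399 genes, and measures the spread between these pools alone. The procedure was tested on simulated data.

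The receptors and lists (other and atypical chemokine receptors, chemokines, signalling genes, resting and activated Treg genes, cell markers) were chosen with earlier results of these data known. Trac and Hbb-bt had no row, and some listed genes are counted but not reported here. Named genes were the 9 receptors, the other receptors past the filter, chemokines and signalling genes past the threshold (at most 6 per list), the 3 genes nearest in pattern to the receptors of highest and lowest fold change, and Setd2. Any other gene was named after its values were seen. Python 3.11.15, numpy 2.4.6, pandas 2.3.3 and matplotlib 3.10.9 were used.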

Additional observations from a re-analysis of the deposited data

How the results depend on the processing

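The direction of all 9 receptors was the same in 11 other settings with all 4 libraries. These covered the pseudocount, filters, scalings, variance models, the replicate block, limma-voom and exon length. The filters, variance models and replicate block leave each fold change as it is, so only the remaining settings could have altered a direction. How many passed was not. Among genes whose mean FPKM passed 5 in 1 genotype or both, 4 receptors were called higher (Cxcr3, Cxcr6, Ccr4 and Ccr8). Median-ratio scaling and quantile normalization each called 2 higher (Cxcr3 and Cxcr6), and limma-voom on recovered reads called 3 higher (Cxcr3, Cxcr6 and Ccr8) and 1 lower (Ccr6). Without a filter on low values, or without the variance trend, 0 were called higher. With 1 library left out, 0 receptors were called higher and 0 lower in each case, and 0 to 1 genes higher and 0 to 1 lower of all tested, so those fits cannot place a receptor. Leaving out KO 2 turned Ccr7 to 0.16 and Ccr2 to -0.029, and over the 4 such fits they ran from -0.57 to 0.16 and from -0.029 to 0.86.

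Over all genes, 581 were called higher and 530 lower. Without the filter these were 0 and 0, without the variance trend 315 higher, with limma-voom 878 and 1008, and with the exon length trend removed 321 lower. The cause of these differences was not tested.

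The replicate number pairs the libraries by name only, as the labels tie it to no litter or day. Deviations of same-numbered libraries correlated at 0.34 (Pearson) and 0.055 (Spearman) over the genes tested. A replicate block brought the calls to 968 genes higher (8.49%) and 805 lower (7.06%), and of the receptors 4 were higher (Cxcr3, Cxcr6, Ccr4 and Ccr8) and 2 lower (Cxcr4 and Ccr6). Of the 7 other receptors, chemokines and signalling genes called, all lost the call without the filter on low values (adjusted p from 0.086 to 0.111). Without the variance trend Ccrl2 (0.0625), Cxcl10 (0.054) and Pik3r5 (0.0566) lost it, as did Cxcl10 with robust eBayes (0.0562) and Ccrl2 with the exon length trend removed (0.0565). None of the 7 reversed. With 2 libraries per genotype, precision is limited by their spread, and the part of depth was not tested.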

Other observations

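Genes of resting and of activated Treg cells, listed as background to the receptors, were tested in the same fit, and those named were picked after their values were seen. Of 10 resting genes, 2 fell, among them Bcl2, a survival factor (35.8 and 20.6 mean FPKM in CTRL and KO, log2 fold change -0.77 ± 0.076, adjusted p = 0.0306). Tcf7, Lef1, Foxo1 and S1pr1, which also mark resting cells, did not pass and overlapped between genotypes. Of 12 activated genes, 5 rose, namely Icos, Batf, Tnfrsf9, Gzmb and Il10, with log2 fold changes from 0.38 (Tnfrsf9) to 1.34 (Gzmb), the last the gene of a cytotoxic protease. Cd44, at 33.2 and 29.1 mean FPKM, did not pass. Over all genes tested, 5.10% were called higher and 4.65% lower.

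Of the marker lists, Nrp1 rose among 6 Treg genes (59.6 to 79.7 mean FPKM), and 0 of 4 T-cell, 0 of 6 B-cell, 0 of 8 myeloid, 0 of 2 erythroid, 0 of 3 platelet and 0 of 5 sex-linked genes tested passed. For CD8 T cells and for NK cells 1 gene each was tested, and neither passed. Ighm, at 893 and 637 FPKM in CTRL and 1238 and 1162 in KO, was the highest B-cell marker (adjusted p = 0.063).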
